A study of Arabidopsis thaliana with 6 samples.

Results

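The JASMONATE ZIM-DOMAIN (JAZ) repressors of jasmonate signalling were examined in shoots of Arabidopsis plants under long-term salt stress. Of 10 JAZ loci considered, JAZ1 (AT1G19180), JAZ5 (AT1G17380), JAZ8 (AT1G30135) and JAZ10 (AT5G13220) had a probe set naming that gene alone, so 4 of 14276 genes in all were measured. For JAZ2, JAZ3, JAZ6, JAZ7, JAZ9 and JAZ12 no named probe set was found, and they are not analysed here. The plants were wild type Col-0, grown hydroponically and 28 days old per the labels. Salt plants received 150 mM NaCl in the medium for 4 d, and control plants received the same medium without NaCl. There were 3 salt and 3 control samples, described as independent biological replications, each on 1 Affymetrix ATH1 array. Whole rosettes were harvested, so fewer cells of a type and less RNA per cell cannot be told apart.

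JAZ proteins hold jasmonate responses off in resting leaves. They bind MYC-type and other transcription factors and bring in co-repressors such as TOPLESS, directly or through the adaptor NINJA. When the active hormone, jasmonoyl-isoleucine, accumulates after wounding or attack, the F-box protein COI1 takes up JAZ proteins together with the hormone, the JAZ proteins are degraded, and the transcription factors are released. Many JAZ genes are themselves induced by jasmonate, which gives a negative feedback loop, and jasmonate is also known to promote leaf senescence.

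All values are log2 expression per probe set after robust multiarray averaging, and each difference is salt minus control on that scale. "Rose" and "fell" are used where limma's p, adjusted by the Benjamini-Hochberg method over all 14276 genes, was under 0.05. Control arrays correlated with each other at 0.993 to 0.997 over all probe sets, and salt arrays at 0.980 to 0.988, the lower values being those of salt replicate 1. The 25S ribosomal RNA signal was 9.05 to 10.24 on salt arrays, highest on salt replicate 1, against 7.16 to 7.84 on control arrays. For actin, the 3′ probe set exceeded the 5′ one by 3.36 to 3.66 on salt arrays and 3.11 to 3.23 on control arrays, whereas for GAPDH the same excess was smaller with salt, at 0.07 to 0.37 on salt arrays and 0.39 to 0.45 on control arrays. Of 13 green leaf markers 3 were measured (RCA, PRK and HPR1), at 11.64 to 13.40 on salt and 12.59 to 13.62 on control arrays, lowest on salt replicate 1. Of 4 guard cell markers 3 were measured and all 3 fell, GC1 by 2.34, beside 12.3% of all genes called lower. The part of these signals in the JAZ results was not tested.

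JAZ1, JAZ5 and JAZ8 rose after 4 d of salt, and JAZ10 did not pass the test. Over all genes tested, limma called 11.4% higher and 12.3% lower. All 4 JAZ genes had been named only through a supplementary list of H2O2-responsive genes from a separate experiment, and of the 921 genes named that way 36.9% were called higher. The 3 called JAZ genes therefore stand beside a background that is itself high. The list pools genes up-regulated and genes down-regulated by H2O2, and the shares given for it here were not split by that direction. The direction of the JAZ genes under H2O2 was not examined. None of the 4 JAZ genes was called lower. In the mean, 4 of 4 JAZ genes were at least 2-fold higher with salt, against 5.32% of all genes (2.68% were at least 2-fold lower) and 28.4% of those named through that table. The median difference was 1.45 over the 4 JAZ genes, -0.03 over all genes and 0.29 over the genes named through that table. JAZ10 counts among the 4 and is a middle value of that median, though its groups overlapped (limma adjusted p = 0.607). Without salt replicate 2 the difference of JAZ10 was -0.16.

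JAZ1, one of the repressors that COI1 binds in the presence of the hormone and that represses MYC2, had log2 values of 11.60, 11.06 and 10.46 on the salt arrays (replicates 1, 2 and 3), against 9.31, 9.48 and 9.31 on the control arrays. Every salt array lay above every control array, and the salt arrays spread far more than the control arrays. The mean was 11.04 ± 0.57 in salt and 9.37 ± 0.098 in control samples (SD, n = 3 each). The difference of 1.67 (SE 0.26, 95% interval 1.05 to 2.29, limma adjusted p = 0.00632) corresponds to 3.19-fold.

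JAZ8 is a repressor that lacks the usual degron for COI1, is resistant to hormone-induced turnover and recruits TOPLESS through a motif of its own. Its log2 values were 8.24, 7.64 and 6.56 on the salt arrays (replicates 1, 2 and 3), against 5.58, 5.49 and 5.38 on the control arrays. The groups did not overlap, the control arrays lay close together, and salt replicate 3 was the salt array nearest to them. The mean was 7.48 ± 0.85 in salt and 5.48 ± 0.10 in control samples (SD, n = 3 each), a difference of 2.0 (SE 0.38, 95% interval 1.1 to 2.9, limma adjusted p = 0.0121), or 3.99-fold. Its control mean lay close to the 30th percentile of mean signal over all genes (5.23).

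JAZ5, of the same clade as JAZ1, had log2 values of 9.25, 8.61 and 8.22 on the salt arrays (replicates 1, 2 and 3), against 7.60, 7.98 and 7.27 on the control arrays. The groups did not overlap, but salt replicate 3 and control replicate 2 were only a little apart. The mean was 8.69 ± 0.52 in salt and 7.62 ± 0.36 in control samples (SD, n = 3 each), a difference of 1.08 (SE 0.28, 95% interval 0.41 to 1.75, limma adjusted p = 0.0341), or 2.11-fold. Groups that do not overlap in this way, with salt above, were found for 18.9% of all genes (23.8% had salt below) and for 44.1% of those named through the H2O2 table. An exact two-sided permutation test gave p = 0.1 for JAZ1, JAZ5 and JAZ8 each, the smallest value that 3 arrays against 3 can give.

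**Figure D1:**
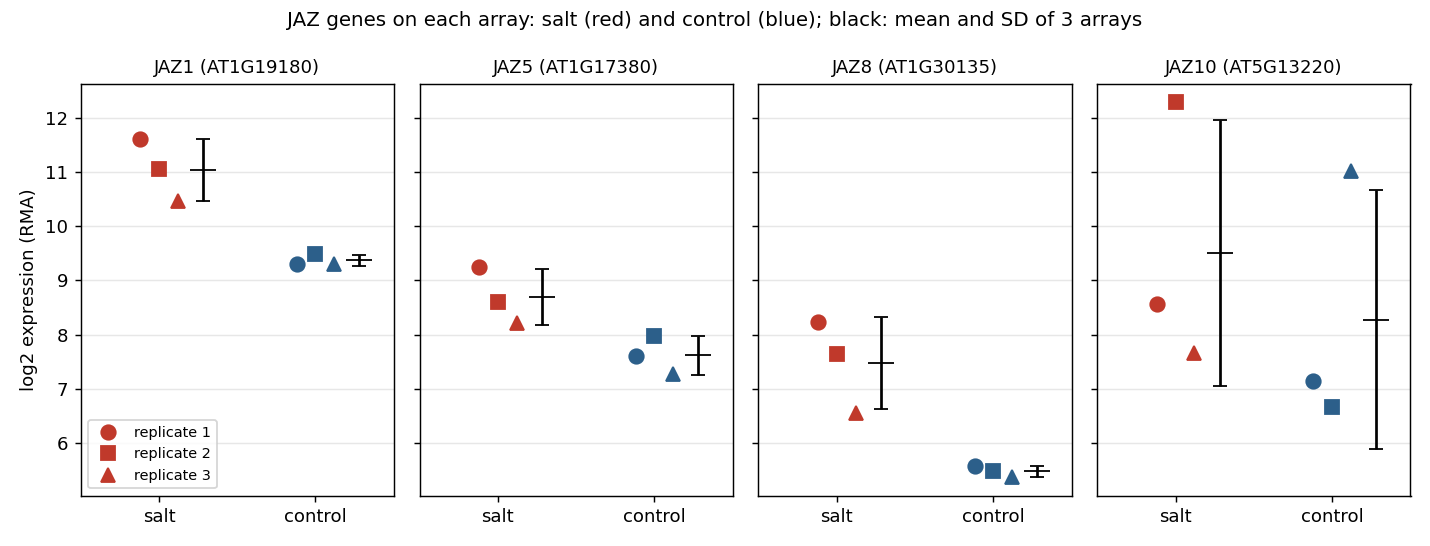
Log2 expression of the 4 measured JAZ genes on each of the 6 arrays, with salt arrays in red and control arrays in blue, marker shapes for replicates 1 to 3, and the mean and SD of 3 arrays in black. Salt arrays lay above control arrays for JAZ1, JAZ5 and JAZ8, whereas JAZ10 was at 12.28 on salt replicate 2 and 11.02 on control replicate 3 and overlapped. Levels of different genes come from different probe sets and are not comparable.

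JAZ10 spread far more within its groups than the other 3. It is a jasmonate-induced repressor with spliced forms that lack part or all of the Jas domain and are more stable. A single probe set gave its value, and which of the forms that probe set reads was not examined. Its log2 values were 8.56, 12.28 and 7.67 on the salt arrays (replicates 1, 2 and 3), against 7.14, 6.67 and 11.02 on the control arrays. One array in each group stood far above the rest: salt replicate 2 lay 3.72 above the next salt array, and control replicate 3 lay 3.88 above the next control array. The groups overlapped. The mean was 9.50 ± 2.44 in salt and 8.28 ± 2.39 in control samples (SD, n = 3 each), and the difference of 1.23 (SE 1.49, 95% interval -2.30 to 4.75, limma adjusted p = 0.607) was smaller than the spread within either group. An exact two-sided permutation test gave p = 0.5. The interval includes no change as well as a rise as large as that of JAZ8. By SD over the arrays of a group, JAZ10 ranked 1 of 14276 genes among the control arrays and 2 among the salt arrays. The other 3 also had wide salt SDs, at percentiles of 95.8 (JAZ1), 94.9 (JAZ5) and 98.9 (JAZ8) over all genes. On the control arrays the SD of JAZ5 was at percentile 97.6, that of JAZ1 at 57.8 and that of JAZ8 at 59.

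Of the 4 genes, JAZ10 moved most when single arrays were left out. Its difference was -0.16 without salt replicate 2, where its direction turned, 2.60 without control replicate 3, 0.66 and 0.42 without control replicates 1 and 2, 1.70 without salt replicate 1 and 2.14 without salt replicate 3. It was 2.48 with array weights, and none of these settings gave a limma adjusted p under 0.05. Without both of the arrays that stood high it was 1.21 (limma adjusted p = 0.0878), a setting chosen after its values were seen. JAZ1 passed in each of the 6 fits with 1 array left out, with differences of 1.39 to 1.96. JAZ8 ranged from 1.62 to 2.46 and did not pass without control replicate 2 (limma adjusted p = 0.0531). JAZ5 ranged from 0.80 to 1.31 and did not pass without salt replicate 2 or without any 1 of the 3 control replicates (limma adjusted p of 0.0576 to 0.107). The lowest differences of JAZ1, JAZ5 and JAZ8 were those without salt replicate 1, where all 3 still passed.

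**Figure D2:**
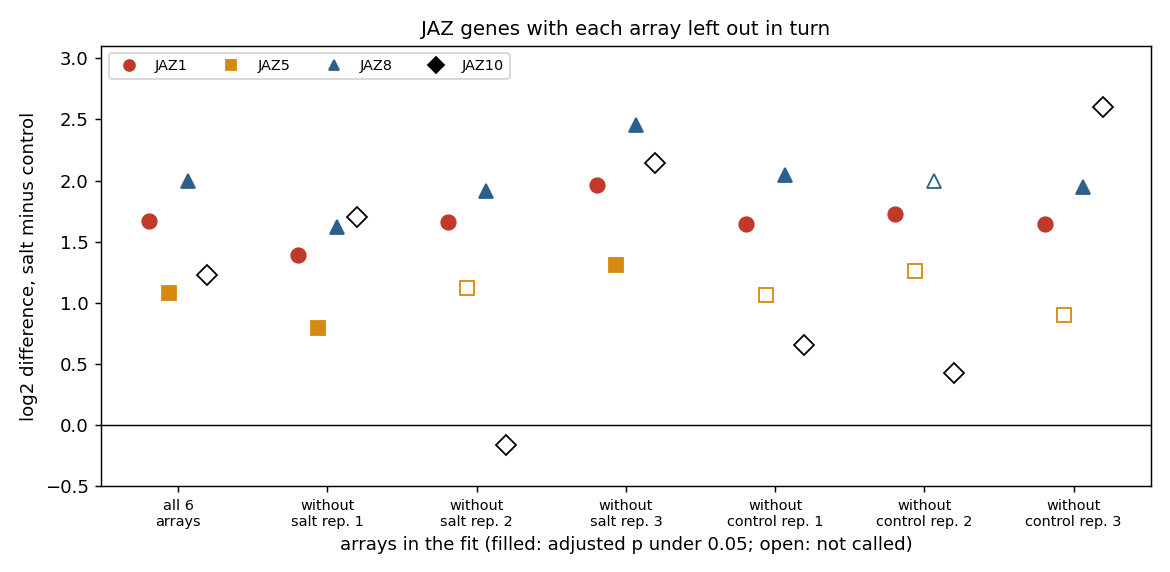
Log2 difference (salt minus control) of the 4 JAZ genes with all 6 arrays and with each array left out in turn, filled where the limma adjusted p was under 0.05 and open where it was not. JAZ1 stayed filled throughout between 1.39 and 1.96, whereas JAZ10 was open throughout and ran from -0.16 to 2.60.

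The 4 genes also differed in which arrays were high. JAZ1, JAZ5 and JAZ8 each had their highest salt value on replicate 1 and their lowest on replicate 3. The same order was found for 35.9% of the 1629 genes that rose, for 19.9% of all genes and for 15 of the 28 other jasmonate genes measured. Salt replicate 1 also had the highest 25S ribosomal RNA signal and the lowest green leaf markers, as given above. JAZ10 followed another order, with salt replicate 2 and control replicate 3 high. On control replicate 3, by contrast, JAZ5 and JAZ8 had their lowest control value, and JAZ1 equalled its lowest.

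**Figure D3:**
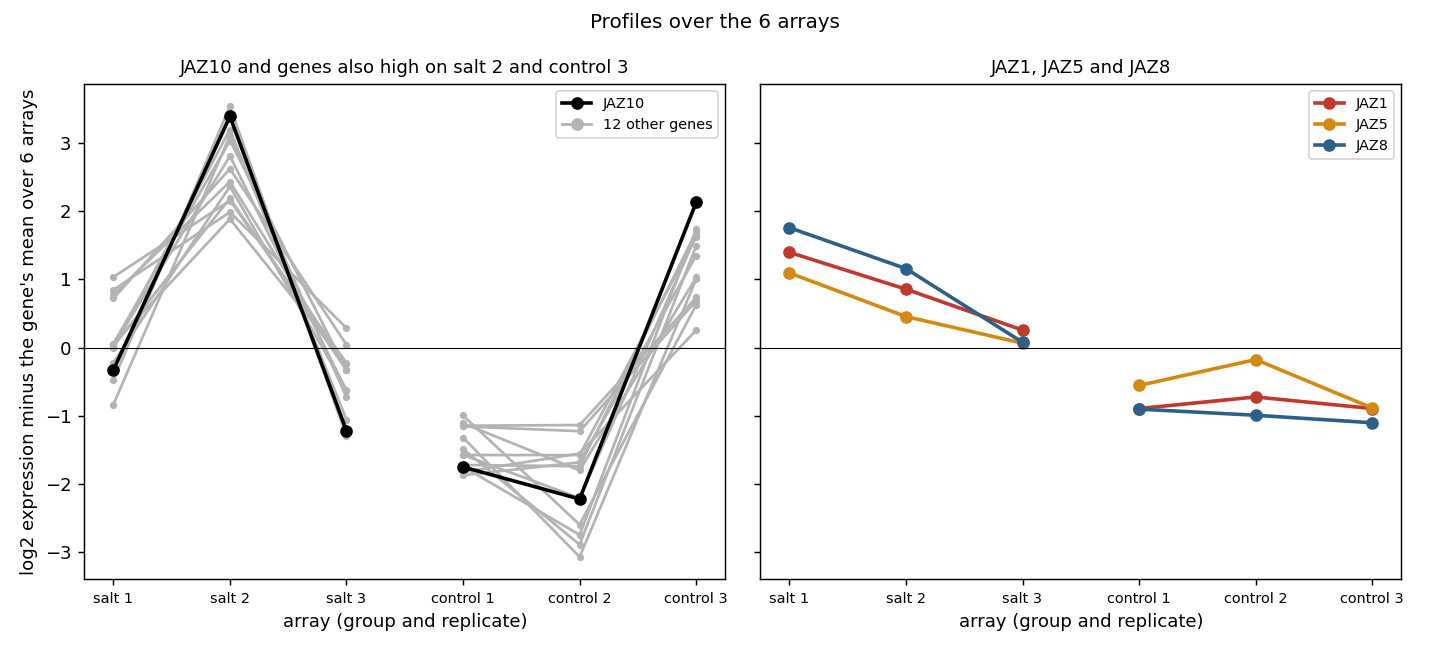
Log2 expression on each array minus the gene's own mean over the 6 arrays, for JAZ10 with the 12 other genes high on salt replicate 2 and control replicate 3 (left) and for JAZ1, JAZ5 and JAZ8 (right), with lines joining the replicates of a group for legibility. On salt replicate 2 and control replicate 3 all genes of the left panel lay at least 1 above the other arrays of the group, and in the right panel salt replicate 1 was highest for each gene.

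Few genes shared the pattern of JAZ10. By a rule set after its values were seen, 13 genes (0.0911% of those tested) were at least 2-fold above both other arrays of the group on salt replicate 2 and on control replicate 3, and 7 of them were at least 4-fold above on both. JAZ10, whose profile set the rule, had the largest such gap of all genes on control replicate 3. The others were TPS04, a terpene synthase gene, GSTU6, a glutathione S-transferase gene, AT1G76640 (CML39, a calmodulin-like protein), AT5G64120 (peroxidase 71), MDHAR, for monodehydroascorbate reductase, JAL23, a jacalin-related lectin gene, AT1G54020, JOX2 (AT5G05600), AT5G47330, AT1G06620, GolS1, for galactinol synthase, and PGL5. The rule picks genes with a wide spread within both groups, so failing limma's test between salt and control is largely built into it. None of the 13 passed that test, and 1, GolS1, had an unadjusted limma p under 0.05. JOX2 encodes an oxygenase that hydroxylates jasmonic acid and so removes it from hormone synthesis. Its values were 9.73, 11.90 and 9.38 on the salt arrays (replicates 1, 2 and 3), against 8.60, 7.91 and 10.74 on the control arrays. TPS04 stood at 8.58, 11.56 and 8.19 on the salt arrays, against 6.78, 5.78 and 10.26 on the control arrays.

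Likeness was also measured by Pearson's r over the 6 arrays, as a description of genes that share the same arrays and the same 2 groups. The 5 genes most like JAZ10 were AT1G76640 (r = 0.995), AT5G64120 (0.993), GSTU6 (0.992), AT3G26730 (0.983) and AT3G26140 (0.983). The last pair varied little over the arrays, from 8.15 to 8.48 and from 4.6 to 4.85. The 5 genes most like the mean profile of the 4 JAZ genes were AT2G47330 (0.995), 4CL8 (0.993), a 4-coumarate-CoA ligase-like gene, GLR2.9 (0.988), a glutamate receptor-like gene, AT5G61260 (0.986) and AT4G02360 (0.982). That mean profile carries the wide spread of JAZ10: over the 6 arrays JAZ1, JAZ5 and JAZ8 correlated with each other at 0.945 to 0.992, but with JAZ10 at 0.072 to 0.339. AT2G47330, GLR2.9 and AT5G61260 varied little over the arrays, from 7.49 to 7.85, from 4.32 to 4.98 and from 4.15 to 4.65. Only 4CL8 passed the test among these 10, with a difference of 1.6 (limma adjusted p = 0.0425).

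Other genes of the pathway were read from the same fit. Of 96 genes in lists of jasmonate synthesis, turnover, perception, target transcription factors, response genes and other TIFY proteins, 28 were measured. Among these 28, 10 rose, 1 fell and 17 did not pass, beside 11.4% called higher and 12.3% called lower over all genes. The median difference of the 28 was 0.79, against -0.03 over all genes and 0.29 over the genes named through the H2O2 table. Of the 28, 12 had been named only through that table, where 36.9% were called higher and 11.6% lower. Among those that rose, LOX4, ACX1, CYP94B3, ANAC055, ANAC072 and CHIB were named that way. JOX3, JOX4, ORA47 and PDF1.1 were named through the platform annotation. None of 9 other TIFY genes and none of 13 genes of perception and co-repression was measured, so COI1 and NINJA have no value here, and neither has MYC2.

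In jasmonate synthesis, 6 of 22 listed genes were measured. Among the 6 measured, 2 rose, none fell and 4 did not pass, with a median difference of 0.47. Of these 6, 3 were named only through the H2O2 table, LOX4 and ACX1 among them. The share called higher was 36.9% over the genes so named and 11.4% over all genes. LOX4, which encodes a lipoxygenase of the first step in the plastid, was at 9.45, 9.01 and 8.13 on the salt arrays (replicates 1, 2 and 3), against 7.03, 7.03 and 7.16 on the control arrays. It was highest on salt replicate 1, like JAZ1, JAZ5 and JAZ8, and rose by 1.79 (SE 0.30, limma adjusted p = 0.00819). ACX1, for an acyl-CoA oxidase that shortens the side chain in peroxisomes, was at 11.74, 11.23 and 11.20 on the salt arrays, against 9.72, 9.69 and 9.58 on the control arrays, and rose by 1.73 (SE 0.15, limma adjusted p = 8.67e-04). AOC3, for an allene oxide cyclase, had 0.65 (SE 0.20, limma adjusted p = 0.0588) and passed with array weights, with the low-signal filter and without salt replicate 2.

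In jasmonate turnover, 3 of 9 measured genes rose, none fell and 6 did not pass, with a median difference of 1.25, or 0.80 without salt replicate 1. The median of 1.25 is the value of JOX2, which did not pass and whose groups overlapped. Of these 9, 4 were named only through the H2O2 table, CYP94B3 among them (36.9% called higher over that table, 11.4% over all genes). JOX3, for an oxygenase that hydroxylates jasmonic acid, was at 11.19, 10.52 and 9.95 on the salt arrays (replicates 1, 2 and 3), against 7.66, 8.11 and 7.38 on the control arrays. All salt arrays lay well above the control arrays, and the rise was 2.84 (SE 0.32, limma adjusted p = 0.00192). CYP94B3, for a cytochrome P450 that hydroxylates jasmonoyl-isoleucine, was at 8.57, 8.34 and 7.88 on the salt arrays, against 5.55, 5.39 and 5.60 on the control arrays, and rose by 2.75 (SE 0.18, limma adjusted p = 3.12e-04). JOX4, of the same oxygenase family as JOX3, rose by 2.28 (SE 0.34, limma adjusted p = 0.00548). The other members of that family did not pass, and whether they differed from JOX3 and JOX4 was not tested. JOX1 had -0.16 (SE 0.14, limma adjusted p = 0.45) and JOX2 had 1.25 (SE 0.88, 95% interval -0.82 to 3.33, limma adjusted p = 0.355), both named after their values were seen. The difference of JOX2 was 0.47 without salt replicate 2, 0.67 without control replicate 2 and 2.08 without control replicate 3. Without both arrays on which it stood high, salt replicate 2 and control replicate 3, the difference of JOX2 was 1.3 (limma adjusted p = 0.0464). That fit of 2 arrays against 2 was chosen after the values were seen. Leaving out the arrays that stood high lowers the spread within groups by construction, so that p adds no evidence of a rise.

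Of the transcription factors that JAZ proteins bind, 3 of 16 listed were measured. MYC4, a relative of MYC2, was at 5.92, 5.99 and 5.69 on the salt arrays (replicates 1, 2 and 3), against 6.80, 6.82 and 6.58 on the control arrays. The groups did not overlap, and it fell by 0.87 (SE 0.11, limma adjusted p = 0.0035). Over all genes, 12.3% were called lower and 23.8% had every salt array below every control array. MYC3 had 0.20 (SE 0.11, limma adjusted p = 0.231) and EIN3, a transcription factor of ethylene signalling, had 0.19 (SE 0.13, limma adjusted p = 0.336).

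Among genes that respond to jasmonate through the MYC factors, 5 of 16 listed were measured, and VSP1, VSP2 and TAT3 were not. Among the 5 measured, 3 rose, none fell and 2 did not pass, with a median difference of 2.37. Of these 5, ANAC055, ANAC072 and NATA1 were named only through the H2O2 table (36.9% called higher over that table, 11.4% over all genes). ANAC055 was at 10.33, 9.91 and 8.77 on the salt arrays (replicates 1, 2 and 3), against 5.94, 5.93 and 5.81 on the control arrays. This NAC transcription factor gene had the order of salt arrays seen for JAZ1, JAZ5 and JAZ8, and a difference of 3.78 (SE 0.36, limma adjusted p = 0.00108). ANAC072, another NAC gene, rose by 2.37 (SE 0.28, limma adjusted p = 0.00229), and ORA47, for a factor that activates jasmonate synthesis genes, by 0.89 (SE 0.16, limma adjusted p = 0.00957). Both NAC genes also respond to abscisic acid. NATA1 and THI2.1, named after their values were seen, did not pass. NATA1, for an acetyltransferase that acts on ornithine, was at 12.24, 12.44 and 11.60 on the salt arrays, against 9.39, 7.86 and 11.50 on the control arrays. Its control replicate 3 was high, as for JAZ10, and without that array its difference was 3.47 (limma adjusted p = 0.0111), against 2.51 (limma adjusted p = 0.0673) with all arrays. Without control replicate 2, its lowest array, the difference was 1.65 (limma adjusted p = 0.149), and no other single array left out gave a limma adjusted p under 0.05.

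Among genes of the branch driven by ethylene response factors, 2 of 5 measured rose, none fell and 3 did not pass. Of these 5, CHIB and ERF1 were named only through the H2O2 table (36.9% called higher over that table, 11.4% over all genes). The median difference was 0.89, or 0.48 without salt replicate 1. Both are the values of ERF1, which did not pass in either fit. CHIB, for a basic chitinase, was at 10.25, 10.08 and 10.45 on the salt arrays (replicates 1, 2 and 3), against 8.05, 9.13 and 8.07 on the control arrays, and rose by 1.84 (SE 0.29, limma adjusted p = 0.00644). PDF1.1, a plant defensin gene, was at 8.05, 6.29 and 5.41 on the salt arrays, against 4.43, 4.13 and 4.81 on the control arrays. It rose by 2.13 (SE 0.61, limma adjusted p = 0.0447), but did not pass without salt replicate 2 or without any 1 of the control replicates (limma adjusted p of 0.073 to 0.147), nor with trend and robust estimation in eBayes (limma adjusted p = 0.0543). ERF1, a factor that integrates ethylene and jasmonate signals, had 0.89 (SE 0.34, limma adjusted p = 0.106) and passed without salt replicate 3 (1.24, limma adjusted p = 0.0281). Without salt replicate 1 its difference was 0.48 (limma adjusted p = 0.0863). Its salt replicate 1 was the highest array, as for the JAZ genes other than JAZ10. PDF1.2a and PDF1.2b, named after their values were seen, did not pass. Their mean signal was already near the top, at percentiles of 99.7 and 99.6 over all genes.

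**Figure D4:**
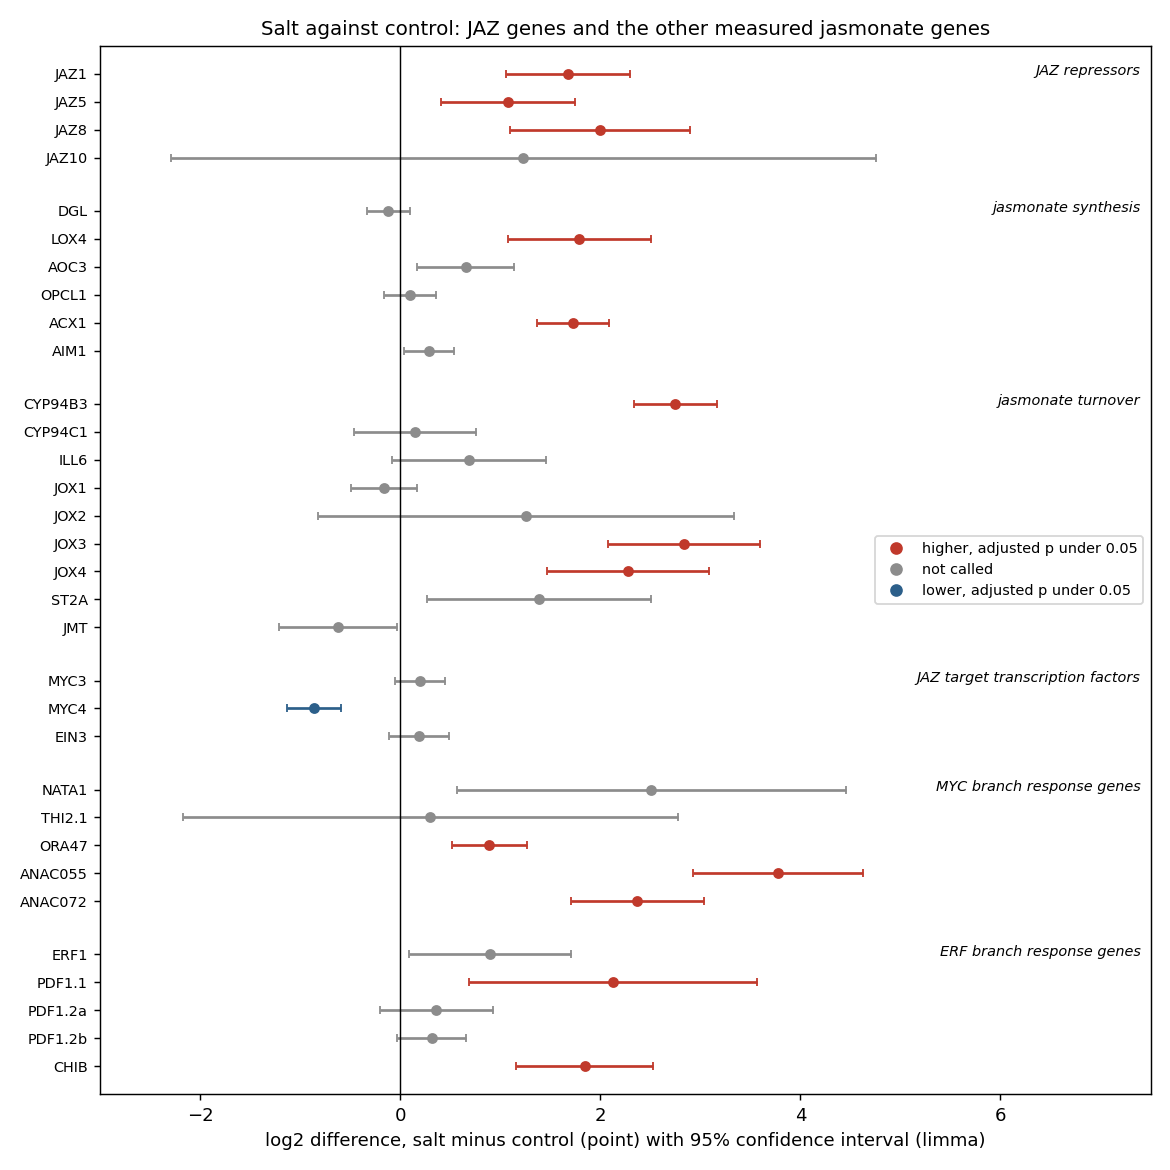
Log2 difference (salt minus control, points) with its 95% confidence interval from limma for the 4 JAZ genes and the 28 other measured jasmonate genes, by list. Red marks the 13 genes called higher and blue the 1 called lower, MYC4, and the interval of JAZ10 is the widest, from -2.30 to 4.75.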

How the data were processed

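Shoots of 3 salt-treated and 3 control samples were hybridized to ATH1 arrays. The authors normalized the probe intensities by robust multiarray averaging and deposited log2 expression values. GCRMA is also listed in the labels, with no role given, and versions are not given in the sources used here. Of 22746 probe sets other than controls, 13513 had 1 gene in the platform annotation and 921 were named only through a supplementary list of H2O2-responsive genes. Where several probe sets named a gene, that of highest mean was kept, leaving 14276 genes, with symbols updated through a TAIR10.1 gene table. JAZ loci without a named probe set were left out.

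Salt and control were compared with limma 3.58.1 in R 4.3.3 (lmFit and eBayes, no pairing) at an adjusted p of 0.05, and the step was tested on simulated data. A second criterion was a 2-fold difference in the mean. The methods name limma and a 2-fold criterion and no pairing. The number of arrays limits the precision. No set test was run, and sequence features of the JAZ genes were not analysed here.

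The JAZ members and the pathway lists were chosen with earlier results of these data known. Named were all JAZ genes, per list the 3 called genes that changed most (filled up from those not called), and the 5 genes most like JAZ10 and most like the mean JAZ profile by Pearson's r. Alternatives were leaving out single arrays, blocking on the replicate number, median centring, quantile normalization, a filter at the 30th percentile of mean signal, eBayes with trend and robust estimation, array weights, all probe sets tested, the mean of a gene's probe sets, and annotation names alone. A fit without salt replicate 2 and control replicate 3 together was added after the data were seen. Figures were drawn with matplotlib 3.10.9.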

Additional observations from a re-analysis of the deposited data

How the results depend on the processing

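With annotation names alone no JAZ gene had a value, since all 4 were named through the H2O2 list. The count of JAZ genes called higher was 3 under the other alternatives, except with single arrays left out (1 to 3, 1 without control replicate 2), and it was 0 without both control replicate 3 and salt replicate 2, a fit of 2 arrays against 2. In that fit JAZ1 had 1.64 (limma adjusted p = 0.0617), JAZ5 0.94 (0.167) and JAZ8 1.86 (0.0985). With 1 array left out, JAZ1 ranged from 1.39 to 1.96, JAZ5 from 0.80 to 1.31, JAZ8 from 1.62 to 2.46 and JAZ10 from -0.16 to 2.60. Signs also turned, with no test passed, for CYP94C1 without salt replicate 1 (-0.17), for THI2.1 without salt replicate 2 (-0.45), salt replicate 3 (-0.08), control replicate 3 (-0.41) or both control replicate 3 and salt replicate 2 (-1.16), and for PDF1.2a without both (-0.03). With 1 array left out these 3 reached at most 0.38, 1.43 and 0.54.

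Over all genes, 1629 were called higher and 1750 lower. With 1 array left out, called higher ranged from 837 (without control replicate 1, and 845 without control replicate 2) to 1701, called lower from 492 (without control replicate 2; 500 and 917 without control replicates 1 and 3) to 1891, and at least 2-fold lower from 215 (without salt replicate 1) to 536. Without both control replicate 3 and salt replicate 2, 1057 were called lower and 586 were at least 2-fold lower. With all probe sets tested, 2645 were called higher, 3145 lower, and 624 were at least 2-fold lower. With annotation names alone, 497 were at least 2-fold higher.

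Deviations from the group means correlated at -0.124, 0.052 and -0.139 between same-numbered arrays, so the numbers give no sign of pairing. With the replicate number as a block, JAZ1, JAZ5 and JAZ8 still passed (adjusted p = 0.0142, 0.0299 and 0.0163), JAZ10 did not (0.656), and 1398 genes were called higher and 1345 lower. Among the other jasmonate genes the block called 2 lower in place of 1, adding JMT (-0.63), and ended the call of PDF1.1. With trend and robust estimation PDF1.1 was not called either (adjusted p = 0.0543), which left 9 of the other jasmonate genes called higher in place of 10.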
